A study of Mus musculus with 12 samples.

Results

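Prostaglandin and cAMP signalling was examined in the m6A peak lists of mouse dendritic cells (DC) through 10 genes, Ptgs2, Ptgs1, Ptges, Ptger2, Ptger4, Adcy7, Pde4a, Pde4b, Pde4d and Creb1. The genes were chosen by name, with the peak lists already known, and a peak was assigned to a gene by the symbol in the list. The number of these genes with a peak in a DC type is therefore a description and was not tested. All 10 genes had a peak in at least 1 DC type, and they carried 49 of the 40978 peaks and 10 of the 9142 transcripts with a peak in any type.

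N6-methyladenosine (m6A) was mapped by meRIP-seq, in which fragmented mRNA is pulled down with an antibody against m6A and sequenced beside the input. Each of 3 DC types had 2 replicates, and each replicate an immunoprecipitate (IP) and an input library, 12 libraries altogether. All 3 types came from bone marrow of 6-week-old C57BL/6 mice grown with GM-CSF at 10 ng/ml and IL-4 at 1 ng/ml. Immature DC (imDC) were the cells taken with CD11c beads on day 5, mature DC (maDC) were imDC given LPS, the endotoxin that triggers DC maturation, at 100 ng/ml for 24 h, and regulatory DC (DCreg) were maDC grown together with endothelial cells of the spleen for 7 days. The labels name no transgene or deleted gene. By the methods the marrow of several mice went into each DC type and the replicates were biological, and since neither names the mice of a replicate, p-values measure only the spread between these samples.

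Prostaglandins are made from arachidonic acid by the cyclooxygenases, and prostaglandin E synthase turns their product into prostaglandin E2. Prostaglandin E2 binds receptors that couple through a stimulatory G protein to adenylate cyclases, which make cAMP, while phosphodiesterases of the PDE4 family break cAMP down and protein kinase A passes the signal on to transcription factors such as CREB. In DC this pathway is known to alter cytokine release and migration. m6A is written on mRNA at adenosines within a short consensus, of which GGACT is a common form, and is found most often near stop codons and in 3′UTRs.

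The sequences around the GGACT motifs listed in the peaks of these genes are shown because they are the places where the mark could lie. Each is 25 bases of the mRNA strand, read 5′ to 3′ from RefSeq transcripts on GRCm38, the assembly also called mm10, and the capitals mark the motif, whose central A is the candidate adenosine. Of the 10 genes, 6 had a GGACT in a listed peak, at 11 positions in all. The first lines hold the motifs that lay in a peak of all 3 DC types.
Pde4b, coding sequence, A at 2246, chr4:102605125-102605149, plus strand: agaggagcagGGACTgccaaggcct
Adcy7, coding sequence, A at 3863, chr8:88327692-88327716, plus strand: tatcctccagGGACTcggatattcg
Adcy7, coding sequence, A at 3924, chr8:88327753-88327777, plus strand: ggggaactgcGGACTtactttgtat
Adcy7, 3′UTR, A at 5311, chr8:88329140-88329164, plus strand: ggtttacccgGGACTttagtccaag
The next lay in a peak of maDC and DCreg, and the others in a peak of maDC alone or, for the first of Ptgs1, of DCreg alone.
Adcy7, 3′UTR, A at 5032, chr8:88328861-88328885, plus strand: catgtgttcaGGACTctggcctgtg
Ptgs1, coding sequence, A at 1390, chr2:36245266-36245290, plus strand: ctatgctggtGGACTatggggttga
Ptgs1, 3′UTR, A at 2764, chr2:36252157-36252181, plus strand: gggaacagatGGACTcatctatgat
Ptgs2, coding sequence, A at 239, chr1:150101048-150101072, plus strand: gactgtacccGGACTggattctatg
Ptgs2, coding sequence, A at 1657, chr1:150105512-150105536, plus strand: ctccttgaaaGGACTtatgggaaat
Ptges, 3′UTR, A at 605, chr2:30892501-30892525, minus strand: ctgaacttgcGGACTtggtgtctct
Creb1, 3′UTR, A at 1291, chr1:64597406-64597430, plus strand: ggtggagaatGGACTggcttggcca
Positions are nucleotides along the RefSeq transcript that the list names, starting with 1 at its 5′ end. For Ptgs2 the reference transcript begins 93 nt further upstream, and this offset was the only one that placed a GGACT at both listed positions.

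Ptger2, Ptger4, Pde4a and Pde4d had no GGACT in any peak. In their highest maDC peaks, all but that of Ptger4 held the shorter form GGAC, shown here with the following base in capitals, and so did a second place in the Pde4b peak.
Ptger2, coding sequence, first G at 1932, chr14:45001974-45001998, plus strand: tgacctttgtGGACAgttgtgagga
Pde4a, coding sequence, first G at 2562, chr9:21211147-21211171, plus strand: cctgacttgaGGACCctgtccccct
Pde4a, coding sequence, first G at 2679, chr9:21211264-21211288, plus strand: gcctgctcggGGACAtcaggagaca
Pde4d, coding sequence, first G at 2182, chr13:109951092-109951116, plus strand: gggccggcagGGACAgactgaaaaa
Pde4d, coding sequence, first G at 2247, chr13:109951157-109951181, plus strand: acactgaaaaGGACAgtggaagtca
Pde4b, coding sequence, first G at 2308, chr4:102605189-102605213, plus strand: ggattctgagGGACCggaaaaggag
The Ptger2 motif lay just upstream of its stop codon, and the coding sequence of the transcript ended at 1943.

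Values are the authors' log2 enrichment of IP over input for a peak in each replicate, after each count was divided by that of the median 100-nt window of the same transcript, so that a peak is measured against its own mRNA. A peak was listed at a false discovery rate (FDR) under 1% and a value of at least 1 in both replicates, and each list was called on both replicates of a DC type together. The count of genes with a peak thus has no replicate error. A list holds no transcript without a peak and the read depth is unknown, so an mRNA without m6A and an mRNA that was rare or missing cannot be told apart. The labels give a TruSeq kit for the first replicate of maDC and imDC and NEBNext Ultra for all other libraries, whereas the methods name NEBNext Ultra alone, so it is unsettled whether the kits differed. If they did, kit and DC type cannot be fully told apart. The replicate columns were taken to follow the labels, which number only the second replicate, and this could not be checked, so the kit behind a value is not certain.

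Peaks were listed on 6 of the genes for imDC, on all 10 for maDC and on 6 for DCreg. The whole lists held 10517 peaks on 6041 transcripts for imDC, 17316 on 8050 for maDC and 13145 on 6658 for DCreg, so the maDC list was also the longest. Ptgs2, Ptgs1, Ptges and Ptger2, the genes of synthesis and 1 of the receptors, were in the maDC list but not in the imDC list, as were 27.2% of all 9142 transcripts. Ptgs2, Ptges, Ptger2 and Pde4d were in the maDC list but not in the DCreg list, as were 24.2% of all. Ptger4, Pde4a, Pde4b, Adcy7 and Creb1 had a peak in all 3 types, a class that was not counted over all transcripts. No gene of the 10 had a peak in imDC or DCreg but not in maDC. Over the whole lists, 5562 of the 6041 imDC transcripts and 5842 of the 6658 DCreg transcripts also had a maDC peak. With at least 1.5 in both replicates, the genes left were 6 for imDC, 9 for maDC and 5 for DCreg, and with at least 2 they were 4, 7 and 2. Of all 9142 transcripts, 43.1%, 66.8% and 54.2% were left at 1.5 and 25.7%, 44.9% and 36.7% at 2.

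Peaks on cell type markers show what else moved with the DC types. Of 11 DC markers, 9 were in the imDC list, 10 in that of maDC and 5 in that of DCreg, from which Cd74, Flt3, Fscn1, H2-Ab1 and Zbtb46 were missing although maDC had them. Of 12 markers of spleen endothelial and stromal cells, 1, 4 and 4 had a peak. Col1a1 and Col1a2 were in the DCreg list only, and Eng and Pecam1 in the maDC but not the DCreg list. Both maDC and DCreg had Kdr and Vwf. Macrophage markers had 3, 6 and 6 of 7, neutrophil markers 3, 1 and 1 of 6, and lymphocyte markers 0 of 6 in each type. Of all 9142 transcripts with a peak in any type, 66.1% were in the imDC list, 88.1% in that of maDC and 72.8% in that of DCreg. These shares leave out transcripts without any peak, whereas the marker counts are out of all markers. A peak in any type was found on 10 DC, 6 endothelial and stromal, 7 macrophage, 3 neutrophil and 0 lymphocyte markers. A peak is not a level of expression, and the part of other cells in the peaks of the 10 genes was not tested.

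**Figure D1:**
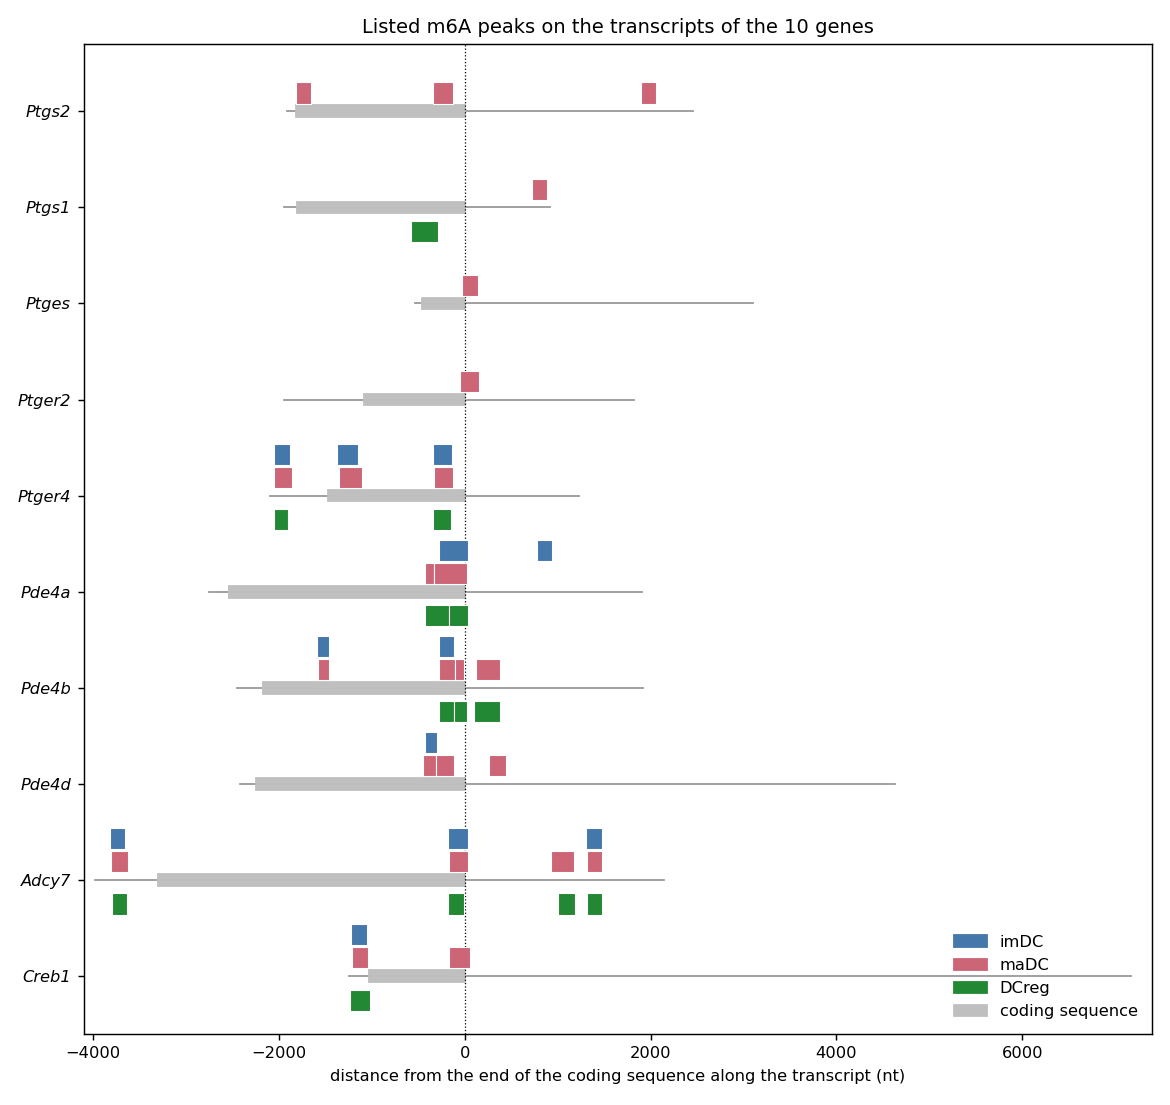
Listed m6A peaks (coloured boxes) along the transcripts of the 10 genes, with the distance from the end of the coding sequence in nt on the x axis, imDC and maDC above the line and DCreg below it. Peaks of Ptgs2, Ptges and Ptger2 appear in the maDC row alone, while Adcy7 has 3 places and Pde4b 1 place with a peak in all 3 types.

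Ptgs2, the inducible cyclooxygenase, had its 3 peaks in maDC alone. The first lay at the start codon at 100–257, across exons 1 and 2 of 10 (chr1:150100223-150101078), with 1.59 in replicate 1 and 1.33 in replicate 2. The second lay in the coding part of exon 10 at 1578–1791 (chr1:150105445-150105658), with 2.07 and 2.59, and was the highest of the 3 in both replicates. The remaining peak was a 3′UTR peak at 3812–3968, 1975 nt past the stop codon, with 1.48 and 2.18. The first and the second held a GGACT, and the one in the 3′UTR held no GGAC at all. Those at the start codon and in the 3′UTR were below the list's median of 1.71 for the lower replicate.

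Ptgs1, the constitutive cyclooxygenase, had 1 peak in DCreg and 1 in maDC, and these lay in different parts of the mRNA. The DCreg peak lay in the coding sequence at 1368–1663, across exons 9 to 11, with 1.12 in replicate 1 and 1.55 in replicate 2, and its lower value ranked 11784 of 13145 in that list, close to the threshold. The maDC peak lay in the 3′UTR in exon 11 of 11 at 2674–2830 (chr2:36252079-36252235), with 2.93 and 1.58.

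Ptges, the inducible prostaglandin E synthase, had a single peak, at the stop codon in maDC at 512–680 (chr2:30892438-30892606), in exon 3 of 3. Its values were 2.51 in replicate 1 and 1.70 in replicate 2, and the lower one ranked 8662 of 17316, in the middle of the maDC list. The peak held 3 GGAC, of which 1 was a GGACT.

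Ptger2 and Ptger4 encode EP2 and EP4, receptors of prostaglandin E2 that raise cAMP. Ptger2 had 1 peak, at the stop codon in maDC at 1889–2093 (chr14:45001941-45002145), in exon 2 of 2, with 1.57 in replicate 1 and 1.44 in replicate 2. Ptger4 had 8 peaks (imDC 3, maDC 3, DCreg 2), none of which held a GGACT. Near the stop codon, in the coding part of exon 3 of 3, its peak at 1756–1961 in imDC had 3.59 and 2.82, that at 1759–1962 in maDC (chr15:5234764-5234967) had 2.69 and 3.17, and that at 1751–1944 in DCreg had 3.01 and 1.61. The 3 peaks began within 8 nt of each other, and the values of the DC types overlapped. They held no GGAC either.

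A Ptger4 peak in the 5′UTR, in exon 1, was also listed in all 3 types, with 3.69 and 1.37 in imDC, 1.17 and 2.06 in maDC, and 1.84 and 1.67 in DCreg. The imDC replicates lay furthest apart, and the values of the 3 types overlapped. Unlike the peaks near the stop codon, these held GGAC, 2 in imDC, 3 in maDC and 2 in DCreg. A peak in the coding part of exon 2, with 2.17 and 2.05 in maDC and 1.90 and 2.27 in imDC, was absent from the DCreg list.

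Adcy7, an adenylate cyclase of leukocytes, had 11 peaks (imDC 3, maDC 4, DCreg 4) at 4 places on chromosome 8. The peak at the end of the coding sequence, across exons 27 and 28 of 28 and with 2 GGACT, was listed at the stop codon in imDC and maDC and ended just short of it in DCreg. It had 1.14 and 2.06 in imDC (3797–4007), 2.48 and 3.30 in maDC (3811–4009), and 2.54 and 3.29 in DCreg (3792–3970). Both maDC values and both DCreg values were above both imDC values. A 3′UTR peak with 1 GGACT was listed in DCreg at 4982–5164, with 2.93 and 2.26, and in maDC at 4903–5155, with 2.39 and 2.65, but not in imDC.

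A distal 3′UTR peak of Adcy7, at 5290–5454 in maDC, had 1.98 and 1.79 in imDC, 2.03 and 1.81 in maDC, and 2.45 and 3.32 in DCreg. Here both DCreg values were above the others. The 5′UTR peak, which crossed exons 1 to 3, had 2.20 and 1.99 in imDC, 2.25 and 1.95 in maDC, and 2.23 and 3.42 in DCreg, and overlapped between maDC and DCreg. Adcy7 was the gene of the 10 with the most peaks in DCreg.

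Pde4b, a cAMP-degrading phosphodiesterase induced by LPS in myeloid cells, carried the highest peaks of the 10 genes. A peak in the coding part of exon 15 of 15, with the GGACT shown above, had 5.64 in replicate 1 and 5.34 in replicate 2 of imDC (2174–2336), 5.61 and 6.14 in maDC (2175–2339, chr4:102605066-102605230), and 5.14 and 4.56 in DCreg (2171–2329). By the lower replicate it ranked 2 of 10517 in imDC, 1 of 17316 in maDC and 85 of 13145 in DCreg. The place lay in 5 of the 6 curated RefSeq isoforms.

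The adjoining stretch of Pde4b was listed as a peak of its own in DCreg at 2330–2472, with 4.28 and 2.04, and in maDC at 2340–2439, with 4.37 and 5.23. A further peak, in the 3′UTR, had 2.74 and 1.32 in DCreg (2552–2832) and 3.80 and 4.33 in maDC (2565–2832). Neither place was in the imDC list. In both, replicate 2 of DCreg was the lowest of the 4 values, and replicate 1 of DCreg was also below both maDC values.

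Towards the 5′ end of the Pde4b coding sequence, a low peak had 1.53 and 1.95 in maDC (866–987) and 1.47 and 1.36 in imDC (854–983). It was centred on exon 6, lay in 3 of these 6 isoforms, and its genome span also covered the gene models Gm52667 and Gm52668, so it is uncertain which transcript it belongs to.

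Pde4a and Pde4d are relatives of Pde4b with the same activity. Pde4a had its main peak around the stop codon in exon 15 of 15, with 3.13 and 2.71 in imDC (2477–2784) and 3.13 and 3.62 in maDC (2419–2777, chr9:21211014-21211372), and 2 abutting peaks covered the place in DCreg, with 3.66 and 1.47 at 2323–2576 and 3.32 and 1.60 at 2577–2788. In DCreg the replicates of each of these peaks lay further apart than in the other types. The stretch just upstream was listed on its own in maDC at 2319–2418, with 2.19 and 2.39. A 3′UTR peak of Pde4a in imDC, with 1.00 and 1.03, was the peak of the 49 nearest to the threshold, and values below the threshold were not analysed here.

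Pde4d had 1 peak for imDC, 3 for maDC and none for DCreg. In maDC the highest lay in the coding part of exon 17 of 17 at 2117–2305 (chr13:109951037-109951225), with 2.75 in replicate 1 and 2.78 in replicate 2, followed by a 3′UTR peak with 1.67 and 2.40. The coding peak just upstream had 1.33 and 2.52 in maDC (1974–2116) and 1.82 and 1.78 in imDC (1997–2120). The maDC replicates of that peak spanned the imDC values.

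Creb1, a transcription factor that protein kinase A phosphorylates, had a peak at the stop codon in maDC alone. It lay across exons 8 and 9 of 9 at 1087–1302, with 4.02 in replicate 1 and 3.82 in replicate 2, and ranked 231 of 17316. It was the highest peak of the 10 genes at a place that no other DC type shared. At the 5′ end, in exon 1 and without GGAC, Creb1 had 2.74 and 3.04 in imDC (26–198), 3.23 and 4.11 in maDC (43–205), and 2.85 and 1.56 in DCreg (17–228). The maDC values were above those of both other types.

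**Figure D2:**
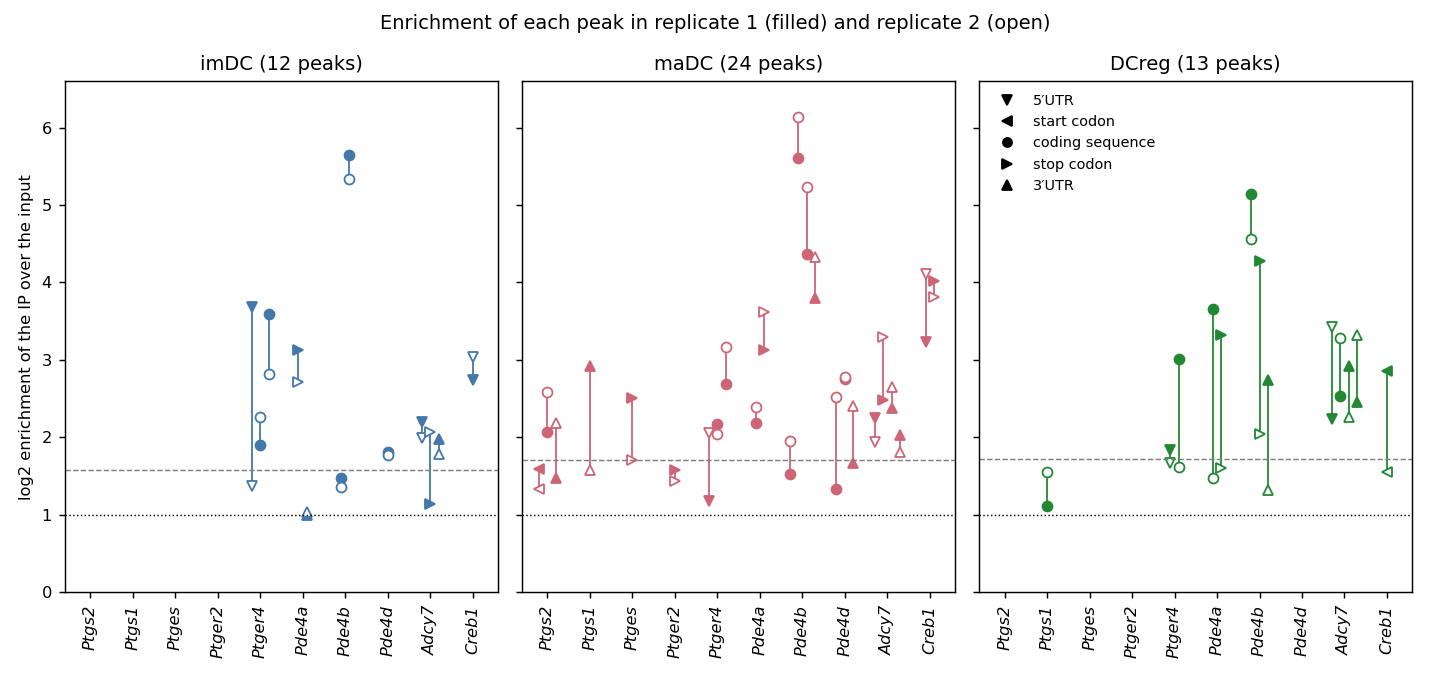
Log2 enrichment of IP over input of each of the 49 peaks in replicate 1 (filled) and replicate 2 (open), by gene and DC type, with symbols for the part of the transcript. The dotted line is the threshold of 1 and the dashed line the median of the lower replicate over the whole list (1.59 in imDC, 1.71 in maDC, 1.72 in DCreg), and the longest bars are in DCreg and at the Ptger4 5′UTR in imDC.

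The replicates of the DCreg peaks of these genes lay far apart. Their median absolute difference was 1.19 over 13 peaks, against 0.59 over all peaks of the DCreg list, and replicate 1 was the higher in 9 of 13. In imDC the median difference was 0.30 over 12 peaks (0.56 over all) and in maDC 0.50 over 24 peaks (0.44 over all). The exceptions in DCreg were mainly Adcy7, in which replicate 2 was the higher at 3 of its 4 peaks.

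**Figure D3:**
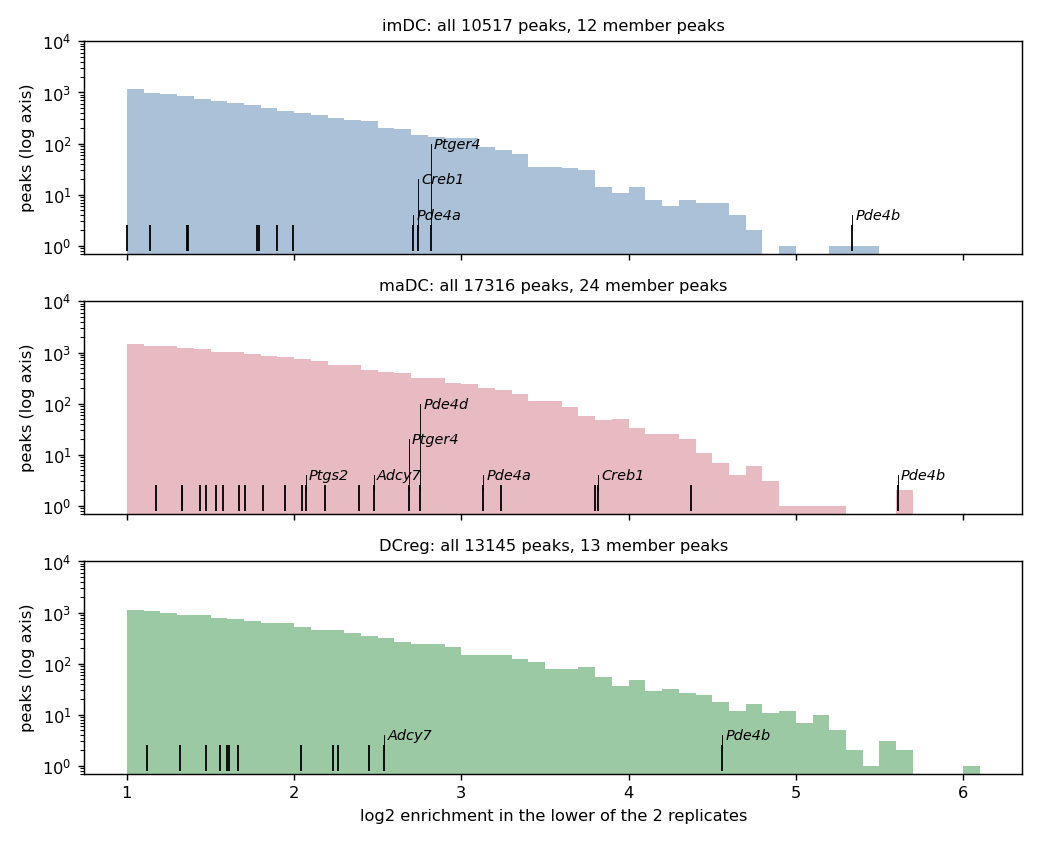
Number of peaks (log axis) by the log2 enrichment in the lower of the 2 replicates, for each whole list, with the peaks of the 10 genes as black ticks and the highest peak of a gene named where it is above 2. Pde4b stands at the far right in imDC (5.34) and maDC (5.61) and at 4.56 in DCreg.

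Peaks in a pair of lists were called shared when they overlapped by at least 50% of the shorter one, and their enrichment was compared with limma across all shared peaks, with Benjamini-Hochberg adjustment and 2 replicates per type. Of the 10 genes, 6 had a shared peak in maDC and imDC, at 11 places, and no place passed an adjusted p of 0.05. Nor did any of the 8306 shared peaks (0%), of which 294 had an unadjusted p under 0.05, although 107 passed without imDC replicate 2, in a fit with 1 imDC replicate. The 4 values did not overlap between maDC and imDC at 3 of the 11 places, against 31.1% of all shared peaks. These were Adcy7 at the end of the coding sequence, Creb1 at the 5′ end and Pde4b at the low 5′ coding peak, each higher in maDC. Over all shared peaks, 1960 of the 2580 without overlap were also higher in maDC. The median difference, maDC minus imDC, was 0.13 over the 11 places and 0.21 over all shared peaks.

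The Adcy7 peak at the end of the coding sequence had the largest difference of the 11 places, 1.29 (SE 0.66, 95% interval -0.0098 to 2.58, adjusted p = 0.98 by limma). It was 1.34 between replicates 1 and 1.23 between replicates 2, each a pair of the same kit if the columns follow the labels. The exon 15 peak of Pde4b differed by 0.38 (95% interval -1.26 to 2.03), and that of Pde4a at the stop codon by 0.45 (-0.92 to 1.82). Ptger4 at the 5′UTR differed by -0.91 (-2.14 to 0.31), and its difference was -2.51 between replicates 1 and 0.69 between replicates 2.

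DCreg and maDC shared 12 places on 5 of the genes, of which none passed the adjusted p, against 22 (0.259%) of 8485 shared peaks. The 22 were all higher in DCreg, and this count was 0 without the variance trend, 1 with the replicate number as a block and 1 to 143 with 1 replicate left out. Of the 12 places, 3 had an unadjusted p under 0.05, against 603 of all 8485, and the 3 were lower in DCreg. The values did not overlap at 5 of the 12 places, against 36.1% of all. Those were the 3 peaks of Pde4b towards the 3′ end and the Creb1 5′ peak, lower in DCreg, and the distal Adcy7 3′UTR peak, higher in DCreg. Over all shared peaks, 1829 of the 3067 without overlap were higher in DCreg. This comparison used the same maDC replicates as the one above. The median difference, DCreg minus maDC, was -0.30 over the 12 places and 0.030 over all shared peaks.

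For Pde4b, the 3′UTR peak averaged 2.03 in DCreg and 4.07 in maDC, a difference of -2.04 (SE 0.72, 95% interval -3.44 to -0.63, adjusted p = 0.38 by limma). The adjoining coding peak differed by -1.64 (SE 0.73, 95% interval -3.07 to -0.21, adjusted p = 0.64 by limma) and the exon 15 peak with the GGACT by -1.03 (SE 0.66, 95% interval -2.32 to 0.27, adjusted p = 0.79 by limma). All 3 were lower in DCreg at both replicate numbers, but by unequal amounts. They lie on 1 mRNA and are measured against it, so they are not independent. Whether the replicate numbers pair the samples is not known, and by the labels replicates 1 of maDC and DCreg differed in kit. At the 3′UTR the difference was -1.06 between replicates 1 and -3.01 between replicates 2. Without replicate 1 of DCreg, the differences were -2.75 at the 3′UTR peak and -2.76 at the adjoining peak, with adjusted p of 0.031 and 0.040 by limma. That fit has 1 DCreg replicate, which is assumed to vary like the 2 of maDC, and it called 143 of all shared peaks in place of 22.

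The Creb1 5′ peak averaged 2.21 in DCreg and 3.67 in maDC (difference -1.47, SE 0.71, 95% interval -2.86 to -0.069, adjusted p = 0.68 by limma). The difference was -2.55 between replicates 2 and -0.38 between replicates 1, but the numbers are not known to pair the samples. The distal Adcy7 3′UTR peak averaged 2.88 in DCreg and 1.92 in maDC (difference 0.97, SE 0.67, 95% interval -0.34 to 2.27, adjusted p = 0.80 by limma).

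DCreg and imDC shared 8 places on 5 genes, and again none passed, as with all 6124 shared peaks (0%, with 386 at an unadjusted p under 0.05). The values did not overlap at 4 of the 8 places, against 37.4% of all. Adcy7 was higher in DCreg at 3 of these, and Pde4b in exon 15 was lower. Over all shared peaks, 1850 of the 2289 without overlap were higher in DCreg. At the end of the Adcy7 coding sequence the difference, DCreg minus imDC, was 1.31 (SE 0.69, 95% interval -0.10 to 2.73, adjusted p = 0.81 by limma). The median over the 8 places was -0.55 and over all shared peaks 0.31.

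**Figure D4:**
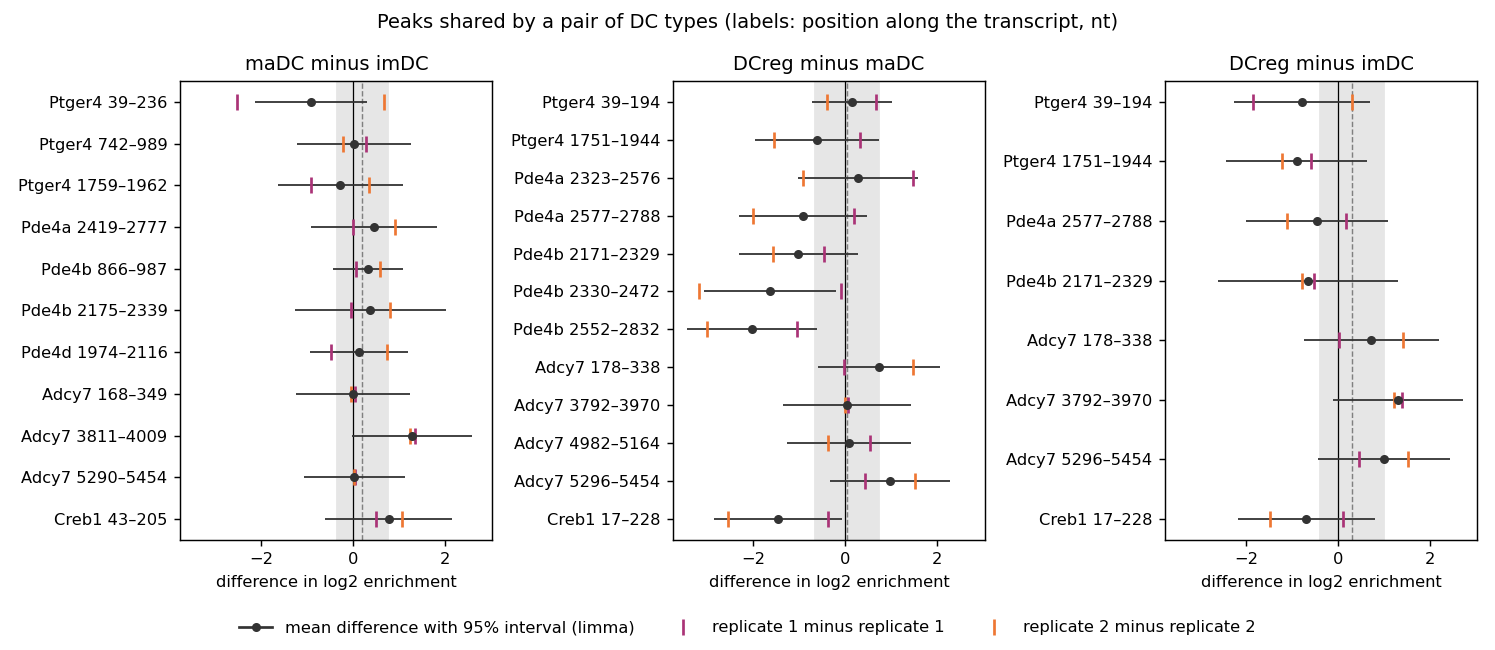
Differences in log2 enrichment at the shared peaks of the 10 genes, labelled by gene and position along the transcript of the first-named type. Points are means with 95% limma intervals, coloured ticks the differences within replicate number, the dashed line and grey band the median ± SD over all shared peaks, and the 3 Pde4b peaks near the 3′ end lie to the left of 0 in DCreg minus maDC, the lowest at -2.04.

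Places of the 49 peaks were merged over the 3 lists into 25 regions by the same overlap of 50%. Of these, 8 were in all 3 types (24.4% of all 22610 regions), 9 in maDC alone (25.8%), 3 in imDC and maDC (12.1%), 3 in maDC and DCreg (12.9%), 1 in imDC alone (6.44%) and 1 in DCreg alone (15.8%). Genes with a peak in both lists differed in which places carried one. In the 6 genes with a peak in maDC and imDC, 6 of 17 maDC regions had no counterpart in imDC, against 37.5% over all such transcripts. In the 6 genes with a peak in maDC and DCreg, 4 of 15 maDC regions had none in DCreg, against 38.3%. The 9 regions of maDC alone were on Ptgs2 (3), Pde4d (2), Ptgs1, Ptges, Ptger2 and Creb1 (1 each).

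Peaks of these genes lay mostly in the last exon, 7 of 12 in imDC, 18 of 24 in maDC and 9 of 13 in DCreg, against 46.1%, 53.5% and 51.4% of all peaks on transcripts that matched the reference. By the location given in the lists, coding sequence was the most frequent class, with 5 of 12 peaks for imDC, 9 of 24 for maDC and 5 of 13 for DCreg, against 37.3%, 38.1% and 47.1% of all peaks. The stop codon held 2, 5 and 2 (12.4%, 14.7% and 11.7% of all), and the 3′UTR 2, 6 and 3 (22.8%, 27.4% and 28.6% of all). The 5′UTR held 3, 3 and 2 (11.6%, 7.37% and 4.69% of all), and the start codon 0, 1 and 1 (14.6%, 11.1% and 6.66% of all). A GGACT was listed in 3 of 12 peaks in imDC, 9 of 24 in maDC and 5 of 13 in DCreg, against 31.4%, 33.1% and 28.0% of all peaks. GGAC was found in 6, 15 and 9 of these peaks, against 70.8%, 70.2% and 64.1% of all peaks on matched transcripts. Only the mRNA strand was searched, GGACT is counted within GGAC, and numbers this small were not tested.

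Other genes of the pathway were counted in 6 lists of 112 genes in all, which hold none of the 10. At least 1 list held a peak on 79 of them, and the counts were 63 for imDC, 70 for maDC and 66 for DCreg. Of the 79, 11 (13.9%) were in the maDC but not the imDC list, against 27.2% of all transcripts, and 12 (15.2%) in the maDC but not the DCreg list, against 24.2%. Both shares were below those over all transcripts at the threshold of 1, a difference that was not tested. Of the pathway genes left at 1.5 the shares were 22.5% and 18.3%, and at 2 they were 36.4% and 32.7%. Those over all transcripts were not computed at these thresholds. For eicosanoid synthesis and transport the counts were 9, 12 and 11 of 20 genes in imDC, maDC and DCreg. Pla2g4a, the cytosolic phospholipase that frees arachidonic acid, and the leukotriene genes Alox5ap and Ltc4s were among those listed in maDC alone, and were picked here after the lists were seen. Ptges3, another prostaglandin E synthase, had its highest peak in the 3′UTR in DCreg, with 2.40 and 2.66.

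Of the other prostanoid receptors and of receptors coupled to stimulatory or inhibitory G proteins, 6 of 16 had a peak in each type. Adora2a, an adenosine receptor that raises cAMP, had 2 peaks in imDC (the highest with 4.51 and 2.65), 2 in maDC and none in DCreg. G proteins and adenylate cyclases had peaks on 7, 8 and 9 of 18 genes, and Adcy6, another cyclase, had a 3′UTR peak in imDC with 5.03 and 4.67 and 3 GGACT. Genes named as phosphodiesterases had peaks on 8, 9 and 6 of 14. Those in the maDC but not the DCreg list were Pde12, Pde2a and Pde6d, which were picked here after the lists were seen. Whether each of the 14 acts on cAMP was not examined. Pde7a, a phosphodiesterase of cAMP, had 3.69 and 3.30 at the stop codon in DCreg.

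Protein kinase A, Epac and their anchoring proteins had peaks on 16, 15 and 15 of 23 genes. Prkar2b, a regulatory subunit of the kinase, had a coding peak in maDC with 3.55 and 4.20, and Akap13, an anchoring protein with a long mRNA, had 8, 12 and 11 peaks. The CREB family with its coactivators and targets had the highest share, 17, 20 and 19 of 21 genes. Atf1, a close relative of Creb1, had a stop codon peak in DCreg with 4.10 and 4.59 and a GGACT, and Crtc3, a CREB coactivator, had one in maDC with 3.71 and 4.53.

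**Figure D5:**
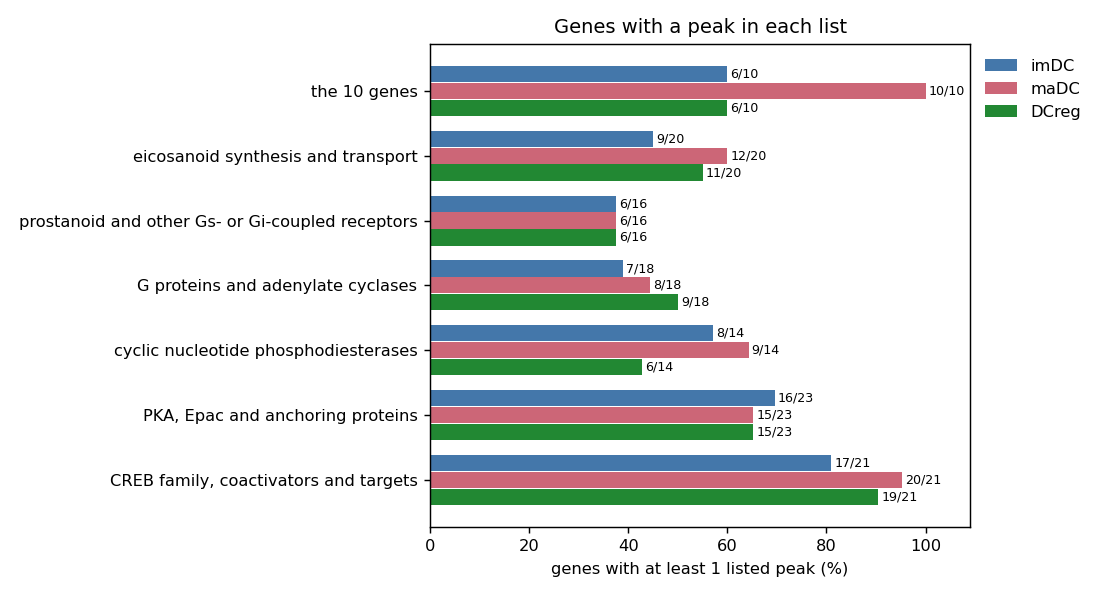
Share of genes with at least 1 listed peak (x axis, %) in imDC, maDC and DCreg for the 10 genes and for the 6 lists of other pathway genes, with the counts at the bars. The 10 genes reach 10 of 10 in maDC and 6 of 10 in the other types, and the receptors have 6 of 16 in each type.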

How the data were processed

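Each DC type has 1 list of m6A peaks, in which the authors deposited, per replicate, the log2 enrichment of IP over input, with the count of a window divided by that of the transcript's median window in both libraries. By the labels and methods, TopHat2 2.0.14 aligned the reads to mm10, and reads were extended to 150 bp and counted per gene on its longest isoform, in windows of 100 bp moved by 10 bp. Windows with under 1/20 of the reads of the top window were dropped, and windows that passed an edgeR test were merged (edgeR version not given in the sources used here). Other columns of per-sample values numbered 0.

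The 10 genes, the pathway and marker lists and the tests were chosen with earlier results of these data known. The rule for named genes was all 10, up to 4 genes of each pathway list with the highest lower replicate, and no other shared peak, and exceptions are stated. Samples were grouped by DC type from their labels. Of the 9142 transcripts, 9072 were found in the GRCm38 RefSeq annotation, and 8268 (90.4%) were long enough and held every listed GGACT where stated. Transcripts without a listed GGACT, among them those of Ptger2, Ptger4, Pde4a and Pde4d, passed by length alone. Exon and GGAC counts used the 8268, with Ptgs2 placed by its offset.

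Shared peaks were compared with limma 3.58.1 (lmFit, eBayes with trend) in R 4.3.3, without a block, after the same steps were tested on simulated data. All 4 values of a shared peak had reached the threshold, so the test does not reach peaks found in 1 list only. Alternatives were other overlaps, no trend, a stricter threshold, centring, a replicate block and leaving out each replicate. Python 3.11.15, pandas 2.3.3, NumPy 2.4.6, SciPy 1.17.1 and matplotlib 3.10.9 were used. Deviations of same-numbered replicates from their means correlated at -0.117 (maDC and imDC), -0.04 (DCreg and maDC) and -0.345 (DCreg and imDC) over shared peaks. None was positive, but this cannot settle whether the numbers pair the samples, since the order of the replicate columns could not be checked.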

Additional observations from a re-analysis of the deposited data

How the results depend on the processing

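The count of genes with a peak was unchanged when peaks were matched by RefSeq transcript, and at a threshold of 1.5 it stayed within 1.5 times its value. At a threshold of 2 it was 2 of the 10 genes in DCreg, and the other pathway genes numbered 29 in imDC, 44 in maDC and 34 in DCreg. Peaks were called on both replicates together, so no list could be made without one of them. Shared peaks called between DCreg and maDC numbered 10 at an overlap of 80%, 0 without the variance trend, 8 at a threshold of 1.5 in all 4 values and 1 with the replicate block, in place of 22, and between DCreg and imDC 2 after centring each library. The replicate block left 0 calls between maDC and imDC and between DCreg and imDC, and no call for the 10 genes. A block of crossed replicates, chosen after seeing the data, gave 1 call between maDC and imDC and 38 between DCreg and imDC. The causes were not tested.

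Leaving out 1 replicate in turn gave 0 to 107 calls between maDC and imDC (107 without imDC replicate 2), 1 to 143 between DCreg and maDC (143 without DCreg replicate 1, 8 without DCreg replicate 2, 1 without maDC replicate 1 and 2 without maDC replicate 2) and 0 to 2 between DCreg and imDC. Each such fit leaves 1 type with a lone replicate, assumed to vary like the other type. Of the 10 genes, the only calls gained were the Pde4b peaks from 2330 (adjusted p 0.040) and 2552 (0.031) without DCreg replicate 1. Of 320 values for the genes' shared peaks under the alternatives, 22 changed sign, all of them uncalled. After centring, maDC minus imDC was -0.24 for Ptger4 from 742, -0.27 for Adcy7 from 168, -0.24 for Adcy7 from 5290 and -0.14 for Pde4d from 1974.

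With a replicate left out, maDC minus imDC ranged from -2.07 to 0.25 for Ptger4 from 39, -0.16 to 0.21 for Ptger4 from 742, -0.66 to 0.11 for Ptger4 from 1759, -0.15 to 0.16 for Adcy7 from 168, -0.074 to 0.14 for Adcy7 from 5290 and -0.46 to 0.72 for Pde4d from 1974. DCreg minus maDC ranged from -0.30 to 0.58 for Ptger4 from 39, -1.32 to 0.080 for Ptger4 from 1751, -0.38 to 0.44 for Adcy7 from 3792, -0.26 to 0.41 for Adcy7 from 4982 and -0.82 to 1.37 for Pde4a from 2323. DCreg minus imDC ranged from -1.94 to 0.38 for Ptger4 from 39 and -1.32 to 0.40 for Pde4a from 2577.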
